A study of Homo sapiens with 6 samples.

Results

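The stretches described here are gaps of at least 500 kb and at most 3 Mb between neighbouring CTCF peaks on the same chromosome (1 to 22 and X) in human neurons. They were selected on the CTCF list alone, by the distance between listed peaks after overlapping rows were merged, so the gaps and their lengths are a description of that list. Of 41272 gaps between 41295 merged CTCF peaks, 460 (1.11%) met the rule, whereas the median of all gaps was 31.8 kb. The 460 gaps covered 365 Mb, which was 12.4% of the 2944 Mb between the outermost listed peaks of the 23 chromosomes. They held 2390 H3K27ac peaks, 366 whole protein-coding genes and 1358 whole lncRNA genes. Every row of the H3K27ac list is counted as a peak, although 8.45% of those in gaps and 6.87% of the others had a q value above 0.05.

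The cells were neurons made by a BrainPhys-based protocol from neural progenitors of KOLF2.1J, a human induced pluripotent stem cell line. The groups were 2 CTCF libraries, 2 H3K27ac libraries and 2 input libraries, all from untreated cultures of this 1 line, and the input libraries were not analysed here. Each antibody has 1 peak list for both of its libraries, so no value below has a replicate spread, no p-value is given and the read depth behind each peak is unknown. Intervals in parentheses are 95% Wilson intervals and cover counting error only. In bulk cultures a strong peak in some cells and a weak peak in all cells cannot be told apart. All 10 neuron marker genes on a fixed list (such as MAP2, RBFOX3 and STMN2) and all 6 progenitor markers overlapped an H3K27ac peak. So did 4 of 5 astrocyte, 3 of 5 oligodendrocyte, 2 of 5 pluripotency and 3 of 6 liver and muscle markers. An H3K27ac peak overlapped 69.0% of all coding genes, so these small counts do not show which cell types were present. Of all these markers, only the pluripotency marker ZFP42 lay in or touched a long gap, and it had no H3K27ac peak.

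CTCF is a zinc finger protein that binds DNA at a specific motif and, with cohesin, anchors chromatin loops and the borders of topological domains. Acetylation of histone H3 at lysine 27 (H3K27ac) marks active promoters and enhancers. Long stretches with few genes, called gene deserts, are a regular feature of mammalian chromosomes, and some of them hold distant enhancers of developmental genes.

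Promoters inside the gaps included sequences with at least 10 CpG under strong H3K27ac peaks and AT-rich or copied sequences with none. The 5 examples shown were picked to include both kinds. Each sequence below is the 250 bases before a transcript start listed for the gene in RefSeq GRCh38.p14, 5′ to 3′ on the strand of the gene, with each CpG in capitals. SMC2, a condensin subunit (chr9:104094059-104094308, plus strand), had 12 CpG and 56.8% GC, and its promoter lay under the strongest H3K27ac peak in any gap (60.4-fold). GORAB, a Golgi protein (chr1:170531916-170532165, plus strand), had 10 CpG, 57.2% GC and a peak of 56.6-fold. NBEA, a scaffold protein of membrane traffic and synapses (chr13:34942020-34942269, plus strand), had 11 CpG, 66.4% GC and a peak of 54.4-fold. OR4C3, an olfactory receptor (chr11:48324670-48324919, plus strand), had 0 CpG, 30.8% GC and no H3K27ac peak. SPANXA1 (chrX:141584739-141584988, minus strand) and SPANXA2 (chrX:141589458-141589707, plus strand), a pair of testis-expressed X-linked genes, had the same base at 250 of 250 positions, so their sequence is shown a single time. Neither SPANXA promoter overlapped an H3K27ac peak. With 6 CpG and 58% GC, they had a higher GC content than the SMC2 and GORAB sequences.
SMC2: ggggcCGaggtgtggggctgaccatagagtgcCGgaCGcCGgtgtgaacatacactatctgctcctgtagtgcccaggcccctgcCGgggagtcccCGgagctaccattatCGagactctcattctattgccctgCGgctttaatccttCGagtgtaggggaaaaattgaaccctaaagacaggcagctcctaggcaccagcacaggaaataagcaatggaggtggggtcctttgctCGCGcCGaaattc
GORAB: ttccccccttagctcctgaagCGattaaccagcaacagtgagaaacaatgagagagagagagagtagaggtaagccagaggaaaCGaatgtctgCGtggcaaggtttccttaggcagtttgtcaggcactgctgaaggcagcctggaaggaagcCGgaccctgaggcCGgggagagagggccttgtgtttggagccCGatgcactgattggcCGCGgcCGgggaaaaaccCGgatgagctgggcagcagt
NBEA: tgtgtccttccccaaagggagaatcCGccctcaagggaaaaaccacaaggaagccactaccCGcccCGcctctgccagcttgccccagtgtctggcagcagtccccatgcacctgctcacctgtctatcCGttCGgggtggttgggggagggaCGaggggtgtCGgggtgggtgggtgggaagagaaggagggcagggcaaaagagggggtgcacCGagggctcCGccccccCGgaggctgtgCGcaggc
OR4C3: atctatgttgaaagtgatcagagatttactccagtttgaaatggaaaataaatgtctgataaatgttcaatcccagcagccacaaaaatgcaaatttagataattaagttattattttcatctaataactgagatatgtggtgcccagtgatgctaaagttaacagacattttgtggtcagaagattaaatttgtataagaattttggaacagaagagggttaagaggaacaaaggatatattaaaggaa
SPANXA1 and SPANXA2: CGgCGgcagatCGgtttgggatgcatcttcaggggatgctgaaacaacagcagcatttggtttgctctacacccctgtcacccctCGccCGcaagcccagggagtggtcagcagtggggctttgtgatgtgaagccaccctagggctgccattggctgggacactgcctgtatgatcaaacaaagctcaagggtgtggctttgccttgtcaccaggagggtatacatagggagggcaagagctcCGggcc

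The gaps ranged in length from 500.014 to 2969 kb, with quartiles of 573, 682 and 860 kb. At least 1 Mb was reached by 78 gaps (17.0%) and at least 2 Mb by 8. The lengths were continuous across the lower limit, with gaps of 500.014, 500.246 and 500.734 kb just inside and of 499.947, 499.927 and 499.801 kb just outside. The 3 just inside held 4, 0 and 15 H3K27ac peaks and the 3 just outside held 1 each. At the upper limit, the 3 gaps just inside were 2969, 2798 and 2765 kb long and held no H3K27ac peak. The 3 just outside were 3403, 3488 and 3522 kb long and held 6, 5 and 1. The 15 gaps over 3 Mb, which together covered 109 Mb, were left out by the rule.

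H3K27ac peaks were sparse in the gaps. The 2390 peaks wholly inside made up 3.04% (2.92 to 3.16) of the 78639 peaks on these chromosomes, against 12.4% of the length. This was 6.54 peaks per Mb in the gaps and 29.6 per Mb in the rest of the listed span, a density 4.52 times lower (ratio 0.221). The peaks covered 0.277% of the gap length and 1.79% of the remaining length. The density was lower inside the gaps on 23 of 23 chromosomes. By the rule, an H3K27ac peak that overlaps a CTCF peak cannot lie inside a gap. Of the 76249 peaks not inside a gap, 63495 overlapped no CTCF peak, and the density was not recalculated for these alone.

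The density was lower in each longer class of gaps, including classes too short for the rule. It was 22.4 peaks per Mb in the 4965 gaps of 100 to 200 kb, 15.4 in the 2629 gaps of 200 to 500 kb, 7.77 in the 382 gaps of 500 kb to 1 Mb, 4.44 in the 70 gaps of 1 to 2 Mb and 0.798 in the 8 gaps of 2 to 3 Mb. The density of whole coding genes was 3.13, 1.97 and 0.942 per Mb in the 3 classes up to 1 Mb, and 1.18 and 0.986 per Mb in the 2 longest. A longer gap has more room for a whole gene, so these gene densities are not free of the length itself. The class of 2 to 3 Mb holds only 8 gaps, 4 of them without a peak. How much of their sequence is assembled and open to reads that align at a single place was not analysed.

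**Figure D1:**
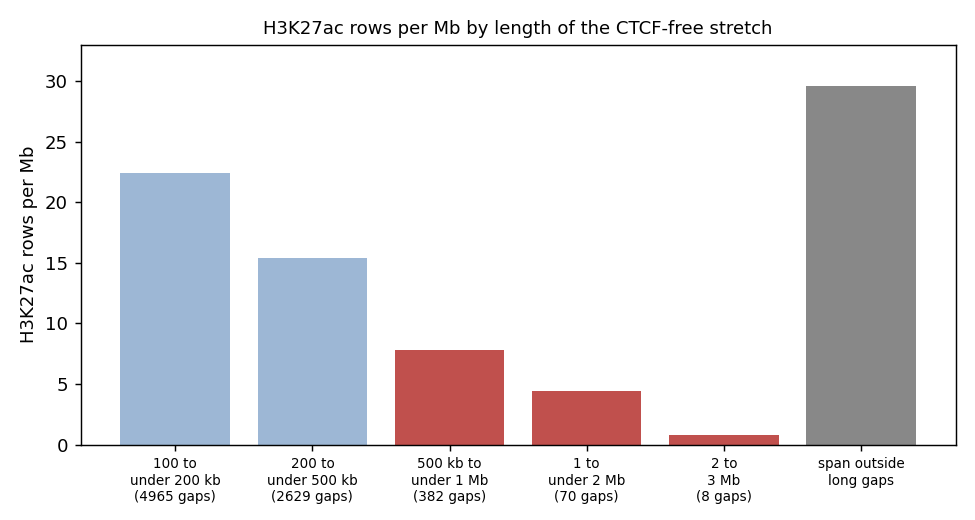
H3K27ac peaks (rows of the list) per Mb in gaps between CTCF peaks by gap length, with classes too short for the rule in blue, the long gaps in red and the rest of the listed span in grey. The bars step down from 22.4 per Mb in gaps of 100 to 200 kb to 0.798 per Mb in gaps of 2 to 3 Mb, against 29.6 per Mb outside the long gaps. The share of each class that is open to read alignment was not analysed.

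The X chromosome held the most gaps, 52, and they took up 28.4% of its listed span. Chromosome 4 followed with 49 gaps (19.7% of the span), and chromosome 13 had 24 (19.97%). Chromosome 19, which is rich in genes, had 1 gap (1.70%), and chromosome 17 had 3 (2.72%). The peak density in the gaps was 4.63 per Mb on X and 18.5 per Mb outside them on the same chromosome. This was the lowest density outside the gaps of any chromosome, and the number of X copies in the cells was not taken into account. On chromosome 3 it was 11.1 inside and 27.01 outside, and on chromosome 6 it was 11.0 inside and 27.2 outside, the highest densities in the gaps of any chromosome.

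**Figure D2:**
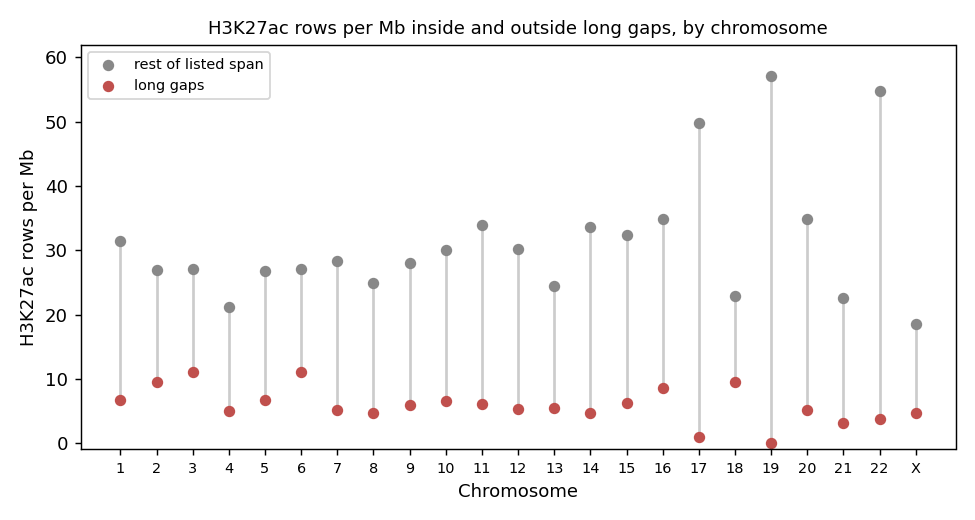
H3K27ac peaks (rows of the list) per Mb inside the long gaps (red) and in the rest of the listed span (grey), for each of 23 chromosomes. The density inside was lower on all 23, and on chromosome 19 the only long gap held no peak.

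Peaks inside the gaps were also narrower and somewhat weaker than the others. Their strength is the fold enrichment at the summit, the ratio deposited by the authors. The median was 4.32-fold (quartiles 3.45 and 5.89) inside and 4.77-fold outside, a ratio of 0.905. Against outside peaks that overlapped no CTCF peak, whose median was 4.50-fold, the ratio was 0.960. The median width was 271 bp inside, 360 bp outside and 329 bp for outside peaks that overlapped no CTCF peak. At least 10-fold was reached by 204 peaks inside (8.54%, 7.48 to 9.72) and by 19.8% outside, and at least 20-fold by 41 (1.72%) and 7.40%. Among outside peaks that overlapped no CTCF peak, these shares were 15.2% and 4.96%. Within deciles of peak width the median was lower inside in 5 of 10. The ratio was between 0.955 and 0.758 in the 5 widest deciles, where it was lower at each step in width, and between 1.00 and 1.04 in the 5 narrowest. The lower fold enrichment was therefore found among peaks of 357 bp or wider. The median was lower inside on 18 of 22 chromosomes with a peak in a gap.

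Within the gaps the peaks were denser near the CTCF peaks at the ends. The median distance from a peak to the nearer end was 147 kb. Within 10 kb of an end lay 159 peaks, 6.65% (5.72 to 7.72) of the gap peaks on 2.52% of the gap length. This was 17.3 per Mb there and 6.27 per Mb farther in. Within 50 kb of an end there were 9.43 per Mb, and 6.13 per Mb farther in. Even the peripheral 10 kb thus had fewer peaks per Mb than the sequence outside the gaps (29.6).

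Gap peaks lay mostly away from coding genes. Within 1 kb of a listed transcript start of a coding gene there were 149 gap peaks (6.23%, 5.33 to 7.28), against 22.4% of the peaks outside. The listed starts may not cover every coding gene, and counts at starts hold for listed starts only. Peaks over an end of ATRX, RAB39B, HDX and DOK6, for example, had no listed coding start within 1 kb. Coding gene intervals were overlapped by 29.0% of gap peaks and 65.0% of the others. LncRNA genes alone were overlapped by 22.1% and 10.1%, and 47.5% of gap peaks against 21.1% of the others lay in neither type of gene and near no start of either. Peaks within 1 kb of a coding start had a median of 7.04-fold in the gaps and 9.48-fold outside. The remaining peaks differed less, with medians of 4.23-fold and 4.34-fold. Whether the smaller share of peaks at coding starts has a part in the lower median of all gap peaks was not tested.

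The peaks were spread unevenly over the gaps. No H3K27ac peak lay in 85 of 460 gaps (18.5%, 15.2 to 22.3), which together spanned 72.5 Mb. Shorter gaps were empty more often, 28.7% of those of 100 to 200 kb and 23.4% of those of 200 to 500 kb. The quartiles were 1, 3 and 7 peaks per gap and the highest was 62. The 10 fullest gaps held 316 peaks (13.2%), and 75 gaps held 50% of all gap peaks. Of the 85 gaps without a peak, 24 held whole coding genes (66 genes) and 2 held no gene of any type.

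**Figure D3:**
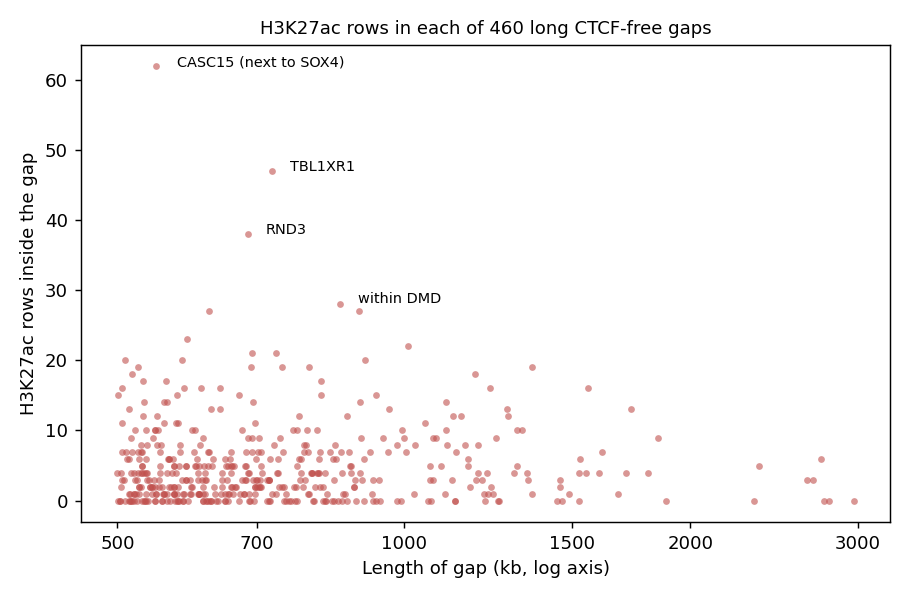
Number of H3K27ac peaks (rows of the list) in each of the 460 long gaps (vertical axis) against gap length in kb on a log axis. Most gaps held 7 peaks or fewer, and the 3 fullest gaps, with 62, 47 and 38 peaks, were 549, 727 and 685 kb long.

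The gap with the most peaks, chr6:21597291-22145883, was 549 kb long and held 62 H3K27ac peaks, 5 of them at 10-fold or more and the highest at 21.7-fold. It starts within SOX4, which encodes a transcription factor of neural development, and contains most of the lncRNA gene CASC15. CASC15 extends into the next gap, which a CTCF peak separates from the preceding one, and was overlapped by 64 gap peaks in all. That next gap, chr6:22146158-22737356, held 23 peaks up to 16.3-fold. Neither of its coding genes, PRL (the hormone prolactin) and HDGFL1, overlapped an H3K27ac peak. H3K27ac peaks were thus dense along CASC15 and absent from PRL and HDGFL1.

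TBL1XR1, a subunit of a nuclear corepressor complex, reached into chr3:177051144-177777780, which held 47 peaks up to 30.6-fold. The lncRNA gene LINC00578 in that gap was overlapped by 26 of them. RND3, a regulator of the actin cytoskeleton, reached into chr2:149799697-150485036, which held 38 peaks up to 17.7-fold. RYBP, a Polycomb-associated protein, lay whole in chr3:72041372-72665945 with 27 peaks up to 18.4-fold, of which 5 overlapped the gene itself (highest 12.3-fold).

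**Figure D4:**
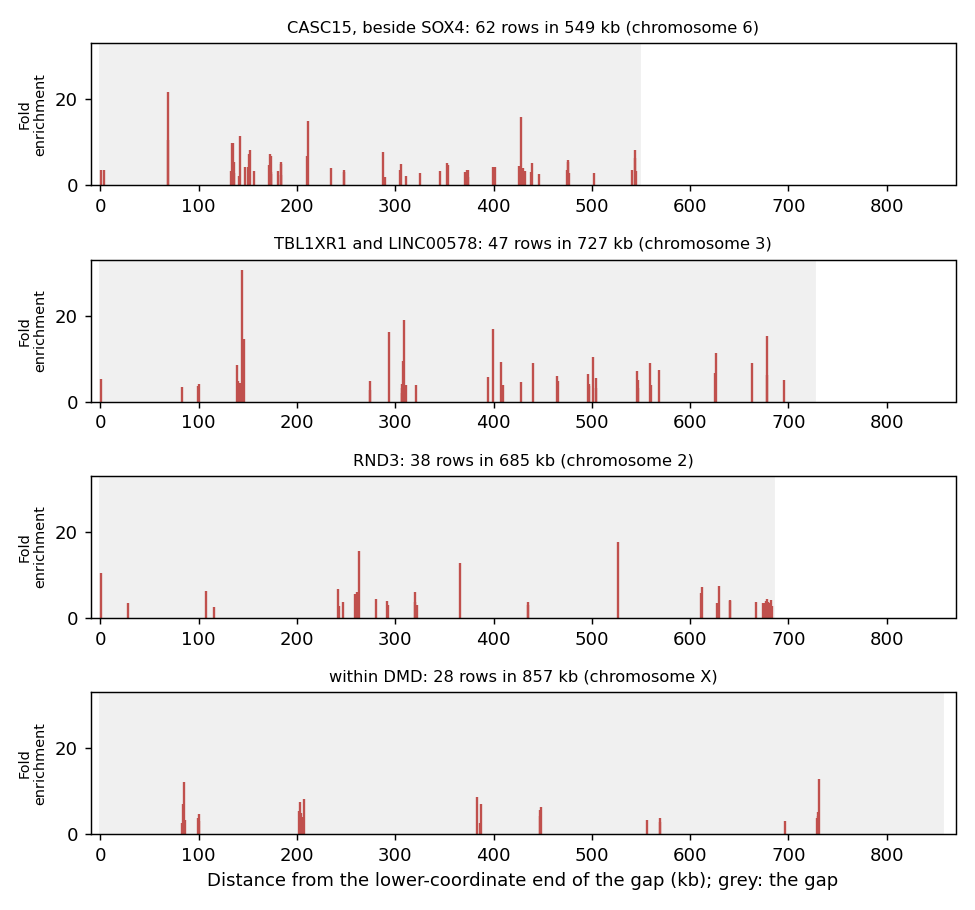
Positions of the H3K27ac peaks in the 4 gaps with the most peaks, as distance in kb from the start of the gap, with the fold enrichment at the summit as the height of each line. Peaks were spread along the gaps in clusters, and most were below 10-fold.

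Other full gaps had no whole coding gene. The gap chrX:31424207-32281636 lay within DMD, the gene of dystrophin, and held 28 peaks up to 12.8-fold. The gap chr9:11319860-12329335, between PTPRD and TYRP1, was met by no coding gene and held 22 peaks up to 11.5-fold. The gap chr6:98040558-98775018 held 21 peaks up to 17.6-fold and ended 59.6 kb before POU3F2, a neural POU-domain transcription factor. The gap chr5:3603273-4295653 held 21 peaks up to 25.7-fold and started 1.87 kb after IRX1, an Iroquois homeobox gene. The gap chr5:17216894-18113714 differed, with 15 whole coding genes, among them 13 of the TAF11L family. It began in BASP1, which encodes a protein of growing axons, and held 27 peaks up to 28.5-fold.

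Of the 10 strongest peaks inside gaps, 5 lay within 1 kb of a listed start of a coding gene. The peak at SMC2 (chr9:104092755-104094536, 60.4-fold) was the strongest and overlapped the SMC2 sequence shown above. Its gap held 2 other peaks. GORAB (56.6-fold) and NBEA (chr13:34941467-34943887, 54.4-fold) followed, both over the promoters shown above. KLF6, a zinc finger transcription factor, had 2 of the 10 strongest, at 50.4-fold over the gene (chr10:3781493-3785263) and 48.9-fold beside it, in a gap with 20 peaks. The peak of 41.5-fold at ATRX, a chromatin remodeller, overlapped the upper-coordinate end of the gene interval, in a gap with 4 peaks. No listed start of a coding gene lay within 1 kb of it. On chromosome 9 a peak of 36.1-fold (chr9:115219327-115221454) lay in the lncRNA gene DELEC1, 101 kb from TNC, which encodes the extracellular matrix protein tenascin C. The remaining 3 of the 10 were not at coding genes. They were 2 narrow peaks between NBPF15 and PPIAL4F (chr1:144560764-144561101, 338 bp, 58.5-fold, and chr1:144546380-144546805, 426 bp, 38.2-fold) and a peak of 36.3-fold on chromosome 20 in the lncRNA gene LOC100134868. The chromosome 1 gap of these narrow peaks also held 9 copied promoters, as defined below, and whether copied sequence adds to their height was not tested.

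The 8 longest gaps together held 17 H3K27ac peaks and 21 whole coding genes. The 3 longest, on chromosomes 8 (2969 kb), 4 (2798 kb) and 10 (2765 kb), held no H3K27ac peak and no whole coding gene. The fourth, on chromosome 20 (2741 kb), held 6 peaks and no coding gene. The next were a gap of 2689 kb on chromosome 9, with 3 peaks and 7 coding genes that included FOXD4L4 and ZNF658, and a gap of 2650 kb on chromosome 21, with 3 peaks and 12 coding genes that have only LOC symbols. The X gap chrX:89872011-92232249 (2360 kb) held TGIF2LX, PABPC5 and part of PCDH11X, with 5 peaks up to 10.5-fold at PABPC5. A gap of 2335 kb on chromosome 6 held no peak. The next in length, both on chromosome 5, were chr5:69561019-71447186 (1886 kb) with no peak and chr5:19609065-21459178 (1850 kb), which part of CDH18 overlaps, with 9 peaks up to 6.47-fold. How much of each gap is assembled sequence to which reads align at a single place was not analysed here, as no genome sequence was used. A lack of reads and a lack of binding cannot be told apart in a list of peaks.

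Genes of each type counted were less dense in the gaps than outside, with the lowest ratio of inside to outside for coding genes. The 366 whole coding genes were 1.83% (1.66 to 2.03) of the 19970 on these chromosomes, 1.00 per Mb in the gaps and 7.53 per Mb outside. Whole lncRNA genes had 3.72 per Mb in the gaps and 6.46 outside, pseudogenes 4.32 and 5.77, and miRNA genes 0.293 and 0.700. Gap coding genes were short, with a median length of 8.14 kb against 24.2 kb for all coding genes, and 67 of them had only a LOC symbol. Whole coding genes lay in 124 gaps. The 197 gaps that met no coding gene at all held 835 H3K27ac peaks, 5.46 per Mb, and 45 of them held none. The 29 gaps that lay inside a coding gene had a higher density, 9.47 per Mb, with none in 6. In the 112 gaps reached by part of a coding gene it was 8.46 per Mb, with none in 11.

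Few gap genes carried H3K27ac. An H3K27ac peak overlapped 71 of the 366 whole coding genes in gaps (19.4%, 15.7 to 23.8), against 69.0% of all coding genes. Since long genes offer more room for a peak, the share was also taken by gene length. Under 10 kb it was 10 of 196 genes (5.10%), against 44.8% of all coding genes of that length. From 10 to 50 kb it was 11 of 87 (12.6%), against 71.2%. From 50 to 200 kb it was 35 of 64 (54.7%, 42.6 to 66.3), against 85.6%, and from 200 kb it was 15 of 19 (78.9%, 56.7 to 91.5), against 96.0%. The share was thus lower in gaps in each length class. Among genes with a peak, the strongest peak of each gene had a median of 12.3-fold in gap genes and 14.6-fold in all coding genes.

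After SMC2, GORAB, KLF6 and ATRX, the whole gap genes with the strongest peaks included RAB39B, a small GTPase of neurons (31.03-fold), HDX, a homeobox gene (28.3-fold), CCDC91 (26.7-fold) and HGSNAT, a lysosomal enzyme (25.9-fold). DOK6, an adaptor protein of receptor tyrosine kinase signalling, had 11 peaks up to 22.9-fold. FSTL5, a secreted follistatin-like protein, had 6 up to 22.7-fold. NRIP1, a nuclear receptor corepressor, had 3 up to 21.9-fold, and LMO3, a LIM-domain transcription cofactor, had 3 up to 13.7-fold. TNC had 2 peaks up to 20.3-fold.

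Promoters in gaps were also rarely acetylated. The promoter window used runs from 250 bases before to 50 bases after a listed start. A gene can have several listed starts, and some genes may have none. An H3K27ac peak overlapped 102 of 448 coding promoters in gaps (22.8%, 19.1 to 26.9), against 58.0% of all coding promoters. For lncRNA promoters it was 55 of 967 (5.69%, 4.40 to 7.33), against 24.0%. Over whole lncRNA genes it was 192 of 1358 (14.1%, 12.4 to 16.1), against 33.8%. Coding genes, lncRNA genes and their promoters in gaps thus all carried H3K27ac less often than the background share.

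A sizable share of gap promoters was copied sequence. A promoter was called copied when at least 50% of its 36-base windows occurred elsewhere in the promoter table on either strand. This held for 110 of 448 coding promoters in gaps (24.6%, 20.8 to 28.7), against 1.86% of all coding promoters. The uncopied coding promoters in gaps overlapped an H3K27ac peak in 96 of 338 cases (28.4%, 23.9 to 33.4), and 59.0% of all uncopied coding promoters did. The low share was thus also found among promoters not called copied. Copies that lie outside the promoter table are not seen by this rule, so some of these promoters may still be duplicated. Counted over coding and lncRNA genes together, the 170 copied promoters in gaps lay in 33 gaps, which held 196 of the 366 coding genes. Of these 196 genes 22 (11.2%) overlapped an H3K27ac peak, and the 33 gaps had 4.64 peaks per Mb. The 320 gaps with promoters of which none was copied held 162 coding genes, 47 of them with a peak (29.0%, 22.6 to 36.4), and had 7.29 peaks per Mb. The 107 gaps with no promoter in the table had 4.92 per Mb. Reads from copied sequence align at several places, and the part of this in the lower counts was not tested.

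**Figure D5:**
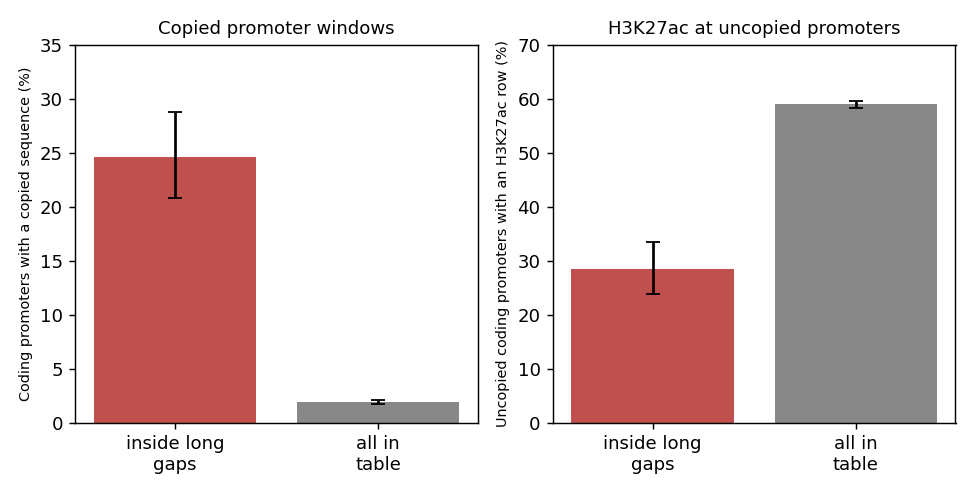
Left, percent of coding promoters with a copied sequence, and right, percent of uncopied coding promoters that overlap an H3K27ac peak (row of the list), in the long gaps and in the whole table; error bars are 95% Wilson intervals for counting error. Copied promoters made up 24.6% in the gaps against 1.86% of all, and 28.4% of uncopied gap promoters overlapped a peak against 59.0% of all.

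Among the copied coding promoters were those of several multigene families, for which counts of peaks per member are uncertain. The gap chr1:12659397-13228034 held the PRAMEF genes, a testis-expressed family, with 2 H3K27ac peaks. Gaps on chromosome 1 held members of the NBPF family and NOTCH2NLB, NOTCH2NLC, SRGAP2B and FAM72D, which are products of segmental duplication. NOTCH2NLB overlapped 3 peaks up to 12.04-fold and SRGAP2B 3 peaks up to 6.47-fold. A gap of 679 kb on chromosome 15 held ARHGAP11B and 5 GOLGA8 genes and had 1 peak. The gap chr13:56736362-57557965 held PRR20A to PRR20E and no peak, and chr5:69561019-71447186 held the copies SERF1A and SERF1B, 15 whole coding genes in all, and no peak.

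Gap promoters were poor in GC and CpG. Over 1415 coding and lncRNA promoters in gaps the median GC content was 44.3%, against 58.7% for all 34961 in the table, and the ratio of observed to expected CpG was 0.242 against 0.580. At least 10 CpG were present in 25.7% and 56.5%. For coding promoters alone the median GC content was 53.3% in gaps and 62.3% in the whole table. The 157 gap promoters with an H3K27ac peak had a median of 58.7% GC and at least 10 CpG in 70.7%. The 1258 gap promoters without a peak had 43.3% GC and at least 10 CpG in 20.03%. The letters TATAAA, searched on both strands, occurred in 22.7% (20.6 to 24.9) of gap promoters and 11.5% of all. Within the gaps they occurred in 10.2% of promoters with a peak and 24.2% of those without. GC content differed between the same groups of promoters, and its part in the TATAAA matches was not tested. The OR4C3 and SMC2 sequences shown above had 0 and 12 CpG.

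Several very long genes contained a whole gap. In all, 26 coding genes spanned 29 gaps. DMD spanned 2 gaps with 30 H3K27ac peaks between them, of 40 in the whole gene. ALK, a receptor tyrosine kinase, and PARD3B, a polarity protein, had 19 gap peaks each, up to 11.1-fold and 13.3-fold. LRBA had 15, MACROD2 14 and DLG2, a postsynaptic scaffold protein, 10 of the 46 peaks of the gene. CNTNAP2, an axonal adhesion protein, had 9 of 42 in its 2 gaps, which covered 1179 kb of a gene of 2304 kb. In 6 of the 26 genes (CALN1, CSMD1, DACH2, EYS, LRP1B and NELL1) the gap held no peak. CSMD1 and DACH2 had none in the whole gene, whereas EYS had 10 and LRP1B had 6 elsewhere.

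Genes of neuronal adhesion and synaptic transmission reached into a gap more often than coding genes as a whole. Of all coding genes, 2.73% overlapped a gap and 1.83% lay whole in one. Of 65 synaptic and axonal adhesion genes 18 overlapped a gap (27.7%), with CNTNAP3 and SLITRK6 wholly inside (3.08%). NRXN3, a presynaptic neurexin, had 13 of its 38 peaks in a gap. ADGRL2, a latrophilin, had 6 of 27. Of 35 cadherins and non-clustered protocadherins 7 overlapped (20%), with PCDH17 wholly inside (2.86%; 3 peaks up to 8.58-fold). Of 47 glutamate and GABA receptor genes 8 overlapped (17.0%), and 3 lay wholly inside (6.38%). GABRE and GABRA3, both among these 3, overlapped no peak. Many of these genes are over 1000 kb long, and the lists were not compared at equal length. Of 80 neural transcription factors 5 touched a gap (6.25%) and 0 lay whole in one. Among them SOX5 had 19 of its 43 peaks in a gap, up to 23.5-fold. SOX4 had 1 of 3 there, at 3.57-fold, and MEF2C and DLX6 had none.

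Some members of clustered and tissue-restricted families lay whole in gaps, mostly without H3K27ac. For comparison, 1.83% of all coding genes lay whole in a gap. Of 392 olfactory receptors 29 lay whole in gaps (7.40%), and 0 of the 29 overlapped a peak, against 8 of all 392. Of 90 genes in X-linked cancer-testis families, such as MAGEC1 and SPANXA1, 12 lay in gaps (13.3%) and none had a peak, against 2 of all 90. Of 510 numbered zinc finger (ZNF) genes 17 lay in gaps (3.33%). Only ZNF711 (22.0-fold), ZNF736 (8.87-fold) and ZNF680 (7.55-fold) of the 17 had a peak, whereas 90% of all 510 did. For olfactory receptors and cancer-testis genes the share with a peak was also low in the whole list, and for ZNF genes it was high. Of 269 members of tissue-restricted tandem families 4 lay in gaps (1.49%), no more than the share of all coding genes. They were the glucuronosyltransferase genes UGT2B17, UGT2B15, UGT2B10 and UGT2A3. None of these 4 had a peak, against 13 of all 269 (4.83%). No cytosolic ribosomal protein gene of 80 overlapped a gap, against 2.73% of all coding genes, and so few genes do not show a difference. These lists are descriptions with no test.

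The gaps also held 89 of the 1558 miRNA hairpins in the RefSeq table, in 52 gaps. The gene annotation has 107 miRNA genes in the gaps, so some of their hairpins are not listed. Of these 89, 0 overlapped an H3K27ac peak, against 9.50% of all hairpins in the table, and 8 (8.99%) lay within 10 kb of a peak, against 46.0%. The largest group was a cluster of 14 hairpins on the X chromosome (MIR506, MIR507, MIR508 and MIR510, and members of the MIR509, MIR513 and MIR514 families), known for expression in the testis. It lay in chrX:146278931-147476095, a gap of 1197 kb with 4 peaks up to 5.98-fold, the nearest 18.7 kb from a hairpin. The hairpin of MIR514B, in the same gap, is not among those listed, but its mature miRNAs are. The mature miRNAs of this gap are shown where different members share a seed, the bases 2 to 8 that pair with targets. They are given 5′ to 3′ with the seed in capitals, from RefSeq GRCh38.p14, minus strand. The seed UUGACAC joins miR-514a-3p and miR-514b-3p, UCUCAAG joins miR-513c-5p and miR-514b-5p, and ACUGCAG joins miR-509-5p and miR-509-3-5p.
hsa-miR-514a-3p: aUUGACACuucugugaguaga
hsa-miR-514b-3p: aUUGACACcucugugagugga
hsa-miR-513c-5p: uUCUCAAGgaggugucguuuau
hsa-miR-514b-5p: uUCUCAAGagggaggcaaucau
hsa-miR-509-5p: uACUGCAGacaguggcaauca
hsa-miR-509-3-5p: uACUGCAGacguggcaaucaug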

How the data were processed

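ChIP-seq for CTCF and H3K27ac was analysed from 2 peak lists deposited by the authors, 1 per antibody, each pooled over 2 libraries. Values of the 2 input libraries were left out. The deposited signal value of the CTCF rows has no stated scale. The deposited H3K27ac value is a fold enrichment (ratio) at the summit, judged from its range. Both deposited lists hold −log10 q values, with a score column assigned by the authors, and no counts, so depth is unknown. The submitters' processing notes list hg38 and cutadapt 1.16 without a role; hg38 was taken as the build of both lists, and every gene and promoter overlap rests on this. The aligner and peak caller are not given in the sources used here.

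CTCF rows were merged when they overlapped. An H3K27ac peak or gene was inside a gap when its whole interval was. Genes (GRCh38.p14), promoters and miRNAs came from RefSeq tables and were joined by position or symbol. Overlap meant at least 1 bp. Shares have 95% Wilson intervals. Computations used Python 3.11.15, NumPy 2.4.6, pandas 2.3.3 and SciPy 1.17.1, and were tested on simulated intervals. Named were the 10 longest gaps, the 10 with the most H3K27ac peaks, the 3 on either side of each length limit, the 10 strongest gap peaks, the genes in these, and list members in gaps, up to 10 per list. Other named genes, gaps and miRNAs were chosen after their values were seen. The gaps and gene lists were chosen with earlier results of these data known. Alternatives covered length limits, stricter lists, the definition of inside, chromosomes and copied promoters. Some list members are not reported here.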

Additional observations from a re-analysis of the deposited data

How the results depend on the processing

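The density of H3K27ac stayed lower in gaps than outside under each alternative tried. Of 37 alternatives over all results, 15 kept the value within its interval (or a count within 1.5 times) and 22 moved it further. A reversal was defined only for the density ratio and the fold enrichment ratio, and 0 of their alternatives reversed. For the other results no reversal could be scored. The number of gaps was 1449 from 300 kb, 78 from 1 Mb, 1002 between the strongest 50% of CTCF peaks and 776 without CTCF peaks of the most frequent width (800 bp), against 460. The density ratio of 0.221 became 0.306 from 300 kb, 0.136 from 1 Mb, 0.165 with no upper limit, 0.422 with the strongest 50% of CTCF peaks, 0.342 without the 800 bp width, 0.178 with the strongest 50% of H3K27ac peaks and 0.207 at least 50 kb from either end. The fold enrichment ratio of 0.905 became 0.880 with q under 0.01 and 0.960 against outside peaks without CTCF. Whole coding genes in gaps numbered 1025 from 300 kb and 127 from 1 Mb, against 366. The share of gap genes with a peak was 41.4% over all genes that overlapped a gap, against 19.4% of whole genes. The median GC content was 53.3% for coding promoters alone, against 44.3%.

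The following were chosen after seeing the data. Without gaps that hold a copied promoter there were 170 coding genes, 28.8% of them with a peak, and a median promoter GC content of 41.3%. The share of copied coding promoters in gaps was 10.7% when at least 90% of windows had to be copied and 35.9% when any window counted, against 24.6%. The cause of these shifts was not tested, beyond the change in the number of gaps, genes or promoters that each alternative makes. No paired analysis was possible because each list pools both libraries of its antibody; leaving out replicates was not run for the same reason. The unknown depth limits what an absent peak shows.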

Other observations

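The CTCF peaks at the ends of long gaps were weaker than most. Their median signal value was 69.1, against 97.4 for all merged CTCF peaks of the list, and the scale of this value is not stated. Long gaps also came in pairs: in 48 places a lone merged CTCF peak separated 2 of them, and 92 of the 460 gaps took part. The peak between such a pair had a median signal of 54.5 and a lowest of 15.1. The 2 gaps along CASC15 are such a pair.

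The gap chr14:105538273-106153329 (615 kb) was dense in genes but held no coding gene and no H3K27ac peak. Among its annotated genes were 27 D segments, 11 V segments, 6 J segments and 9 constant regions, which are parts of the immunoglobulin heavy chain locus that lymphocytes join, and 6 miRNA hairpins.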
